A study of Mus musculus with 6 samples.

Results

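Cxcr4, Ackr3 and Cxcl12 (a chemokine ligand and its pair of receptors) and Erbb4, Nrg1 and Nrg3 (a neuregulin receptor and its ligands) were examined in ganglionic eminences dissected from E13.5 mouse embryos (E, embryonic day). The 6 genes were chosen by symbol, as receptors and ligands that guide the tangential migration of cortical interneurons, out of 55416 rows of the deposited count table. The symbols matched 7 rows, because Nrg1 stands beside 2 gene identifiers. The second of these (ENSMUSG00000118541) had 0 reads in all 6 libraries and was not tested, and the other 6 rows passed the filter on low counts. The study compared embryos that lack both Dlx1 and Dlx2 (double knockout, 3 libraries) with wild-type littermates (3 libraries), all at the same age. Dlx1 and Dlx2 encode homeodomain transcription factors of the ventral forebrain. The labels do not describe the deleted sequence, do not say whether a library holds 1 embryo or a pool, and do not separate the medial, lateral and caudal eminences, so all values are means over a mixed tissue. Where nothing says that libraries came from separate embryos, p-values measure only the spread between these libraries.

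Cortical interneurons are born in the ganglionic eminences and travel tangentially into the cortex. The chemokine CXCL12, secreted by the meninges and by intermediate progenitors of the cortex, attracts them and holds them in their migratory streams. CXCR4 is a G protein-coupled receptor for it, and ACKR3 is an atypical receptor that binds the same ligand, signals through arrestins and removes the ligand from the surroundings. ERBB4 is a receptor tyrosine kinase of migrating interneurons. Neuregulins bind it through a domain that resembles epidermal growth factor. NRG1 is made along the route in the lateral ganglionic eminence and in the cortex, and NRG3 in the cortex.

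Both receptors that carry the attractive signals of the 2 systems were lower in the double knockout. Erbb4 fell to 46.9% ± 2.68 (SD, n = 3) of its wild-type mean and Cxcr4 to 62.0% ± 2.94. The ligand genes Cxcl12 and Nrg1 also fell, to 68.6% ± 3.34 and 77.6% ± 4.04, with calls that several other settings ended. Ackr3 stood at 78.0% ± 12.01 and Nrg3 at 100.2% ± 17.0, and neither passed the threshold. A gene was called where its edgeR quasi-likelihood p, adjusted over all 23628 tested genes, was below 0.05. The 4 called members were all lower, against 1.34% of all tested genes that were called lower, 1.34% that were called higher and 2.68% called in either direction. The 3 libraries of a genotype did not overlap those of the other for 5 of the 6 members, against 19.5% of all tested genes. Leaving out wild-type replicate 1, 2 or 3 or double knockout replicate 1 or 2 changed the number of called genes over the whole table from 634 to 309, 325, 403, 380 and 402, and leaving out double knockout replicate 3 gave 749.

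The promoter windows of the members whose change is described first, and of Ackr3 beside them, differ in the letters marked below. Windows were found in RefSeq (build GRCm38.p6) for 5 of the 6 members, all but Nrg1. Each line below gives the 250 bases upstream of the annotated start, 5′ to 3′ on the strand of the gene. Capitals mark TATAAA on the strand of the gene, the core of the TATA box, and GGGCGG or its reverse complement CCGCCC, the GC box. The windows are chr1:128592300-128592549 (minus strand) for Cxcr4, chr1:90203730-90203979 (plus strand) for Ackr3, chr6:117168285-117168534 (plus strand) for Cxcl12 and chr1:69108060-69108309 (minus strand) for Erbb4.
Cxcr4: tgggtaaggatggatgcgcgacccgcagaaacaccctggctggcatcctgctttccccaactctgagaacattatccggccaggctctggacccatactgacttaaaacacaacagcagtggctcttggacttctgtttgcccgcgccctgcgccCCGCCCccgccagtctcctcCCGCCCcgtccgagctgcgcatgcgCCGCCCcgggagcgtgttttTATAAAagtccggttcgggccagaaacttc
Ackr3: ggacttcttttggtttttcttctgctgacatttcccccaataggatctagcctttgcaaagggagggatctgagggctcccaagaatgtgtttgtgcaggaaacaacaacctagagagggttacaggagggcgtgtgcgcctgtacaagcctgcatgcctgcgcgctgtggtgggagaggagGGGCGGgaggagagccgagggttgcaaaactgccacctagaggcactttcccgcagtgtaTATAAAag
Cxcl12: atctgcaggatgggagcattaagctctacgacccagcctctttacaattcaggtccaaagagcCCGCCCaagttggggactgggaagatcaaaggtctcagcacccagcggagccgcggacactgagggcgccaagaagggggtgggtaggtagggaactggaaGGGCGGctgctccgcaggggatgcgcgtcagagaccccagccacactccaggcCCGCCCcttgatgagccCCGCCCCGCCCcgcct
Erbb4: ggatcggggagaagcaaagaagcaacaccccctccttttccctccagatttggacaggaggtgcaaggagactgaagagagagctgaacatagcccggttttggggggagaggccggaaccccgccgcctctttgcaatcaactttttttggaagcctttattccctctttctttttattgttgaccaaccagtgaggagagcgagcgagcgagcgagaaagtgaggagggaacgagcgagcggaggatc

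Both CXCL12 receptor genes held 1 TATAAA, from 30 to 25 bases upstream of the annotated start in Cxcr4 and from 8 to 3 bases upstream in Ackr3. Among all 32851 windows of the same length, 7.59% held TATAAA on the strand of the gene. Erbb4, Cxcl12 and Nrg3 had none. GC boxes on either strand numbered 3 in Cxcr4, 1 in Ackr3 and 5 in Cxcl12, of which the last 2 in Cxcl12 overlap by 1 base, and 32.7% of all windows held at least 1. Erbb4 and Nrg3 had none. The letters TAATTA, the core that homeodomain proteins of the DLX family recognise, and TAATTG or its reverse complement CAATTA were in none of the 5 windows, against 4.84% and 7.17% of all windows. A match or its absence describes these letters in these windows only, and whether a match works as a TATA box or a GC box was not tested.

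Library totals ran from 56618090 to 70114173 counts, with both extremes in the double knockout, and each member had at least 594 reads in every library. Levels are given as CPM, a gene's share of all counts of its library on a fixed scale, with library sizes adjusted by TMM (trimmed mean of M values). Dlx2 was at 295.7 ± 16.1 CPM in wild-type libraries and at 8.68 ± 1.99 CPM in double knockout libraries, and Dlx1 at 438.9 ± 6.12 and 81.6 ± 10.8 CPM, without overlap, so no library went against its label. Reads outside the deleted sequence could still be counted for either gene. Double knockout replicate 3 stood apart within its group. The caudal eminence gene Nr2f2 was at 114.8 CPM there, against 338.1 and 350.8 CPM in double knockout replicates 1 and 2 and 295.0 to 355.8 CPM in the wild type. The medial eminence genes Nkx2-1 and Lhx6 were at 230.9 and 125.4 CPM in that library, against 169.0 to 178.9 CPM and 75.5 to 88.9 CPM in the other 2. Lhx6 and Nkx2-1 were named here after their values were seen. Y-linked genes summed to 206.5 to 213.9 CPM in wild-type replicate 1 and double knockout replicates 2 and 3, and to at most 0.168 CPM in the others.

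**Figure D1:**
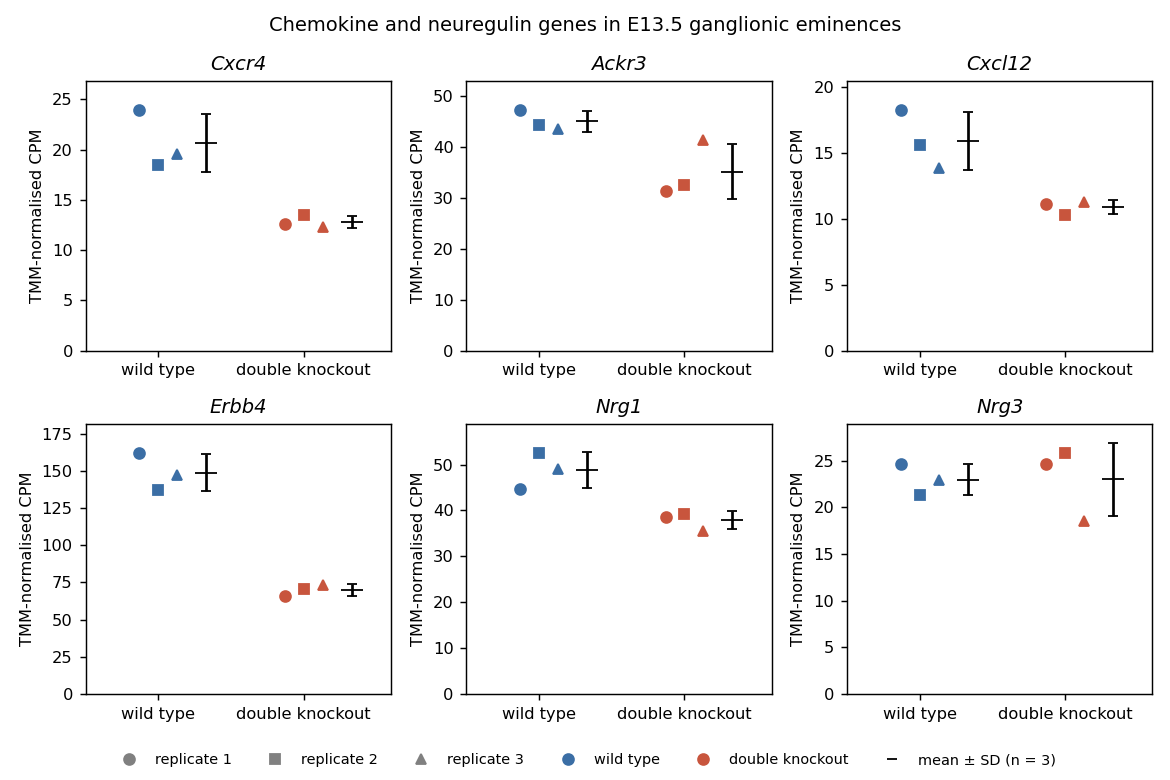
TMM-normalised CPM (vertical axes, from 0) of the 6 genes in each library by genotype, with the mean and SD of 3 libraries. The double knockout libraries lie below all wild-type libraries for Cxcr4, Ackr3, Cxcl12, Erbb4 and Nrg1, and on both sides of them for Nrg3.

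Cxcr4 (ENSMUSG00000045382) was at 23.9, 18.4 and 19.6 CPM in wild-type replicates 1 to 3 and at 12.6, 13.48 and 12.3 CPM in double knockout replicates 1 to 3. The groups did not overlap, and the wild-type libraries spread more (SD 2.91) than the double knockout libraries (SD 0.606). The log2 fold change, double knockout over wild type, was -0.69 with an SE of 0.108 (edgeR adjusted p = 0.0126). Its 95% interval ran from -0.94 to -0.44. Without double knockout replicate 1 the adjusted p in edgeR was 0.0537 at a log2 fold change of -0.68, so the call was lost there although the size hardly moved. Without double knockout replicate 3, the library low in Nr2f2, the log2 fold change of Cxcr4 was -0.66 (edgeR adjusted p = 0.0260).

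Ackr3 (ENSMUSG00000044337), the scavenging receptor, was at 47.3, 44.3 and 43.5 CPM in the wild type and at 31.5, 32.6 and 41.3 CPM in the double knockout. The groups did not overlap, but double knockout replicate 3 lay close to the wild type, at 91.8% of its mean, while replicates 1 and 2 were at 69.8% and 72.3%. With all libraries the log2 fold change was -0.36 with an SE of 0.103 and did not pass (edgeR adjusted p = 0.143). The 95% interval of -0.59 to -0.12 corresponds to 66.3% to 91.8% of the wild-type level. Without double knockout replicate 3 the log2 fold change was -0.49 and Ackr3 was called (edgeR adjusted p = 0.00332). DESeq2 with all libraries also called it, at a log2 fold change of -0.35 (adjusted p = 0.0314). The part of the low Nr2f2 and high Nkx2-1 of replicate 3 in this value was not tested.

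Cxcl12 (ENSMUSG00000061353), the ligand of both receptors, was at 18.2, 15.6 and 13.9 CPM in the wild type and at 11.1, 10.3 and 11.3 CPM in the double knockout. All double knockout libraries were below the lowest wild-type library. The log2 fold change was -0.54 with an SE of 0.111 (edgeR adjusted p = 0.0413). The call held without wild-type replicate 3 (edgeR adjusted p = 0.0340), and it was lost without wild-type replicate 1 (0.147), wild-type replicate 2 (0.118), or double knockout replicate 1 (0.116), 2 (0.155) or 3 (0.0585), at log2 fold changes from -0.56 to -0.43. Markers of cell types that can make Cxcl12 were summed beside it. The endothelial markers summed to 169.5 to 201.0 CPM in the wild type and 179.7 to 208.6 CPM in the double knockout. Meningeal markers without Nnat, which neural cells also express, summed to 182.2 to 191.4 and 179.6 to 241.3 CPM. A part of these markers (Col1a1, Col1a2, Col3a1, Dcn, Lum, Ogn and Foxc1) was named after its values were seen. It summed to 40.7, 28.9 and 25.7 CPM in wild-type replicates 1 to 3, falling in the order in which Cxcl12 fell, and to 29.1 to 29.7 CPM in the double knockout. Of the 15 genes of cortical excitatory neurons and their intermediate progenitors, 2 were called lower and none higher, beside 1.34% of all tested genes in each direction. In either direction, 6 were called in DESeq2, 4 without a filter and 5 without double knockout replicate 3. The unadjusted edgeR p was under 0.05 for 12 of the 15, beside 13.3% of all tested genes. Their median log2 fold change as a list was -0.38. The sum of the 15 genes was 1925 to 1959 CPM in the wild type and 1429 to 1510 CPM in the double knockout. The most highly counted of them, Bcl11b, which striatal neurons of the eminence also express, was at 779.4 ± 16.9 and 536.9 ± 49.7 CPM. The part of these cells in the Cxcl12 difference was not tested.

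Erbb4 (ENSMUSG00000062209) had the largest difference of the 6. Its libraries were at 162.1, 137.2 and 147.6 CPM in the wild type and at 65.6, 70.5 and 73.5 CPM in the double knockout, with a gap between the groups that was wider than the range within either. The log2 fold change was -1.09 with an SE of 0.0713 (edgeR adjusted p = 0.000115). By p-value Erbb4 ranked 35 among the 23628 tested genes. In all 14 other settings it was called lower, at log2 fold changes from -1.15 to -1.03 and adjusted p-values up to 0.00120. The labels do not separate cells within the tissue, so fewer cells that express a gene and less RNA per cell cannot be told apart, here and for the other members.

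Nrg1 (ENSMUSG00000062991), the ligand along the migratory route, was at 44.6, 52.5 and 49.1 CPM in the wild type and at 38.6, 39.3 and 35.6 CPM in the double knockout. The groups did not overlap, and wild-type replicate 1 lay closest to the double knockout. Between the groups the log2 fold change was -0.37 with an SE of 0.0741 (edgeR adjusted p = 0.0399). The call held without wild-type replicate 1 (edgeR adjusted p = 0.0360), and it was lost without wild-type replicate 2 (0.147), wild-type replicate 3 (0.156), or double knockout replicate 1 (0.111), 2 (0.0885) or 3 (0.0650), at log2 fold changes from -0.39 to -0.31. In GENCODE M21, 4.66% of the merged exon length of Nrg1 overlaps Gm26578 on the opposite strand, and its count is uncertain to that extent if counting ignored strand. No exon of the other 5 members overlaps another gene. Gene counts also do not tell the membrane-bound and diffusible forms of Nrg1 apart.

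Nrg3 (ENSMUSG00000041014) was at 24.6, 21.3 and 22.9 CPM in the wild type and at 24.6, 25.8 and 18.5 CPM in the double knockout. The groups overlapped, with the highest and the lowest library both in the double knockout. The log2 fold change was 0.0022 with an SE of 0.125 (edgeR adjusted p = 0.998). Its 95% interval corresponds to 82.2% to 122.0% of the wild-type level. The fitted changes of all 4 called members and of Ackr3, which was not called, lay outside it. The 95% interval of Nrg1, 69.0% to 87.3%, overlapped that of Nrg3. The low value was in double knockout replicate 3, and without that library the log2 fold change was 0.14 (edgeR adjusted p = 0.503).

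**Figure D2:**
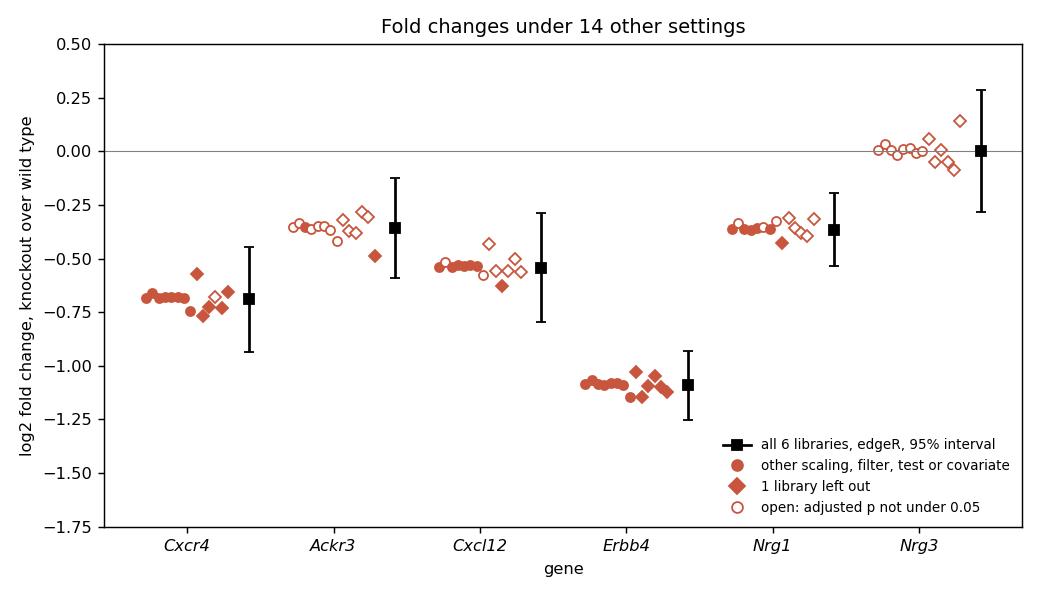
Log2 fold changes (vertical axis, double knockout over wild type) of the 6 genes from all libraries with the 95% interval (black squares) and under 14 other settings (circles for other scaling, filters, tests or terms, diamonds for a library left out, open where the adjusted p was not under 0.05). Erbb4 is called in all settings, Cxcl12 and Nrg1 are open in 7 and 8 of them, and Nrg3 lies on both sides of 0.

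Levels of different genes were compared per kilobase of merged exons (GENCODE M21). This length covers all annotated exons of a gene, while the transcripts present are not known from gene counts, so the order depends on it. By CPM without length, Nrg1 (48.7) stood above Ackr3 (45.1) and Cxcr4 (20.6) in the wild type. In wild-type libraries the 3 receptors were the highest, Ackr3 at 13.46 ± 0.600, Erbb4 at 12.1 ± 1.01 and Cxcr4 at 11.4 ± 1.61 CPM per kilobase (SD, n = 3), and neighbours in this order overlapped. The ligands followed without overlap at each step, Nrg1 at 4.71 ± 0.382, Nrg3 at 3.37 ± 0.245 and Cxcl12 at 1.94 ± 0.270 CPM per kilobase. In the double knockout, Ackr3 was at 10.5 ± 1.62, Cxcr4 at 7.07 ± 0.335 and Erbb4 at 5.66 ± 0.323 CPM per kilobase, without overlap, so Erbb4 stood below Cxcr4. Nrg1 at 3.66 ± 0.190 and Nrg3 at 3.37 ± 0.573 CPM per kilobase overlapped there, and Cxcl12 was lowest at 1.33 ± 0.0650. Per kilobase, the mean of the 6 libraries placed Ackr3 above 80.2% of tested genes with a length and Cxcl12 above 44.0%.

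**Figure D3:**
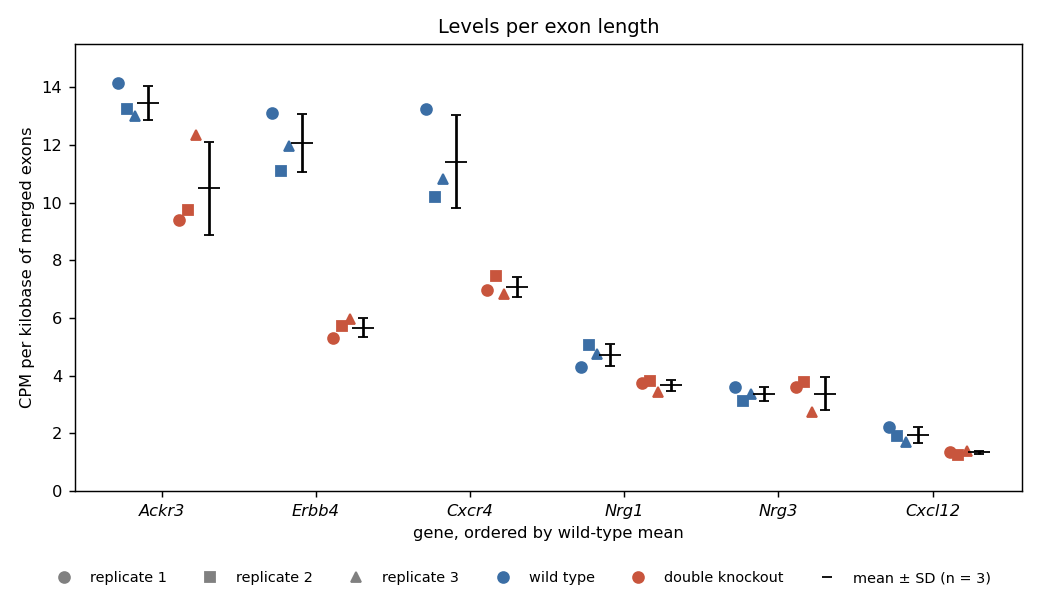
CPM per kilobase of merged exons (vertical axis, from 0) by library for the 6 genes in the order of their wild-type means, with the mean and SD of 3 libraries. With these lengths, the 3 receptor genes stand above the 3 ligand genes in both genotypes. Erbb4 lies above Cxcr4 on average in the wild type and below it in the double knockout.

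The ratio of the reads of 2 genes within a library does not depend on scaling and shows whether partners changed by the same factor. Erbb4 to Nrg3 was at 6.58, 6.44 and 6.44 in wild-type replicates 1 to 3 and at 2.66, 2.73 and 3.97 in the double knockout. The wild-type libraries were thus nearly alike, and no double knockout library came near them. The mean log2 ratio differed by -1.08. Erbb4 to Nrg1 was at 3.63, 2.61 and 3.01 in the wild type and 1.70, 1.79 and 2.07 in the double knockout, also without overlap and with a log2 difference of -0.73. Cxcr4 to Ackr3 was at 0.506, 0.416 and 0.450 in the wild type and 0.400, 0.414 and 0.298 in the double knockout. These groups nearly touched, though without overlap, the log2 difference was -0.31, and without double knockout replicate 3 it was -0.16. The ratios of Cxcr4 to Cxcl12, Ackr3 to Cxcl12 and Nrg1 to Nrg3 overlapped between genotypes, with log2 differences of -0.15, 0.17 and -0.35. In 2-sided exact permutation tests the 3 ratios without overlap had p = 0.10, the smallest that 3 against 3 libraries can give, and p = 0.20 after Benjamini-Hochberg adjustment over the 6 ratios. The other 3 had exact p of 0.20 to 0.30, so no ratio passed a threshold that this design cannot reach.

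**Figure D4:**
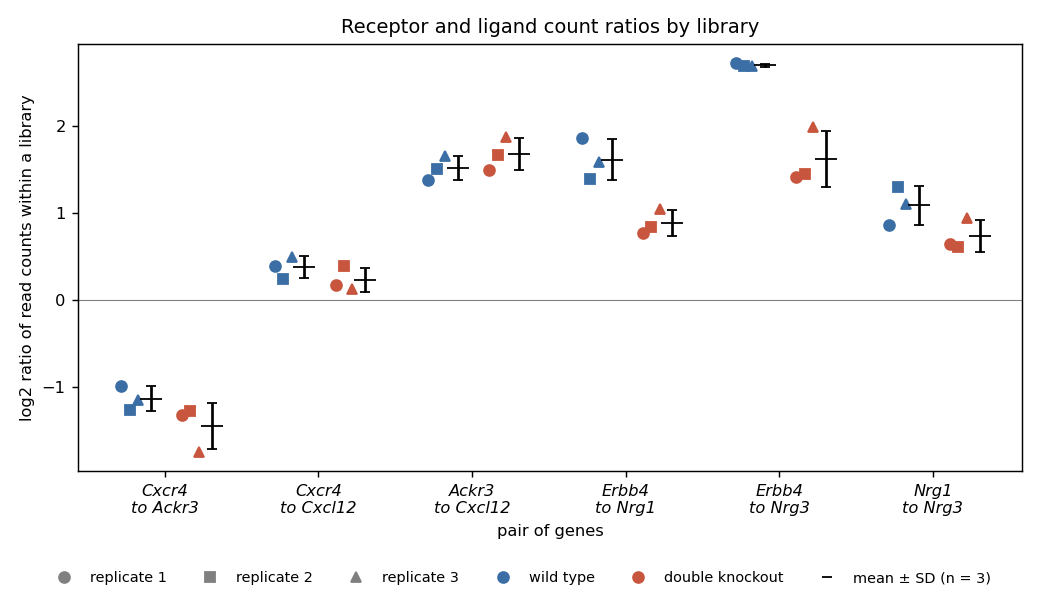
Log2 ratio of read counts within a library (vertical axis) for 6 pairs of genes, by library, with the mean and SD of 3 libraries of each genotype. The genotypes are apart for Cxcr4 to Ackr3, Erbb4 to Nrg1 and Erbb4 to Nrg3, and overlap for the other pairs.

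Other genes of the chemokine system were mostly at low levels. Of 40 listed genes, 24 passed the filter on low counts and were tested. Beside 2.68% of all tested genes called in either direction, 1 of the 24 was called lower and none higher. This was Cxcl14 (ENSMUSG00000021508), a chemokine expressed by neurons and epithelia, which was at 10.2, 8.28 and 7.81 CPM in the wild type and at 1.57, 1.61 and 0.894 CPM in the double knockout. Its log2 fold change of -2.69 (SE 0.224, edgeR adjusted p = 0.000501) was larger than that of any of the 6 members. The most highly expressed listed genes, Hmgb1 and Mif, which encode proteins that act together with CXCR4 among other roles, had log2 fold changes of 0.0052 and -0.018. The list's median log2 fold change was -0.0083, beside -0.0016 over all tested genes. Xcl1, Cxcr1, Cxcl9 and Cxcl11 had 0 reads in all libraries.

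Among 24 genes that act downstream of chemokine receptors (G protein subunits, arrestins, receptor kinases and regulators), all were tested. Of these, 2 were called, beside 2.68% of all tested genes. Rgs16, a GTPase activator that shortens G protein signals, was higher in the double knockout (38.2 ± 2.71 CPM) than in the wild type (22.1 ± 3.43 CPM), by 0.79 on the log2 scale (SE 0.115, edgeR adjusted p = 0.00884). Of its merged exons, 10.1% overlap Gm28513 on the opposite strand. Elmo1, which activates RAC with DOCK proteins during cell migration, was lower in the double knockout (42.7 ± 2.67 CPM) than in the wild type (71.7 ± 1.92 CPM), a log2 difference of -0.75 (SE 0.0597, edgeR adjusted p = 0.000391). Gnb1 and Gng2, the G protein subunit genes with the highest counts, had log2 fold changes of -0.056 and -0.19 and were not called. The median of the list was -0.036.

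Of the other 12 ErbB receptor and ligand genes, 9 were tested and none was called in edgeR, while 3 had an unadjusted p under 0.05, beside 13.3% of all tested genes. DESeq2 called 2 of them, Egfr and Erbb2, and limma-voom called 0. Erbb2, the coreceptor that pairs with ERBB4, was at 14.03, 15.1 and 13.8 CPM in the wild type and at 17.9, 17.5 and 18.5 CPM in the double knockout, with a log2 fold change of 0.33 (SE 0.0750, edgeR adjusted p = 0.0639). Egfr, the receptor of epidermal growth factor and named here after its values were seen, was at 4.95, 2.74 and 3.07 CPM in the wild type and at 9.21, 7.11 and 5.33 CPM in the double knockout. Its log2 fold change was 1.01 (SE 0.260, edgeR adjusted p = 0.0985), with no overlap between the groups. With a library left out, edgeR called Egfr without wild-type replicate 1 and without double knockout replicate 3, and none of the list in the other cases. Tgfa, the most highly counted ligand of EGFR on the list, had a log2 fold change of -0.15. The median of the 9 genes was 0.32.

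Of 31 genes for neuregulin shedding and ErbB signalling, 30 were in the table and tested. Beside 2.68% of all tested genes called in either direction, 1 of the 30 was called higher and none lower. Lrig1, which encodes a membrane protein that promotes the degradation of ErbB receptors, was at 24.4, 29.1 and 26.7 CPM in the wild type and at 33.8, 40.4 and 36.0 CPM in the double knockout. Its log2 fold change was 0.46 (SE 0.0911, edgeR adjusted p = 0.0370). The number called was 0 without any of the wild-type libraries or without double knockout replicate 1 or 2, and 2 without double knockout replicate 3. Nedd4 and Ncor1, at 1696 ± 42.8 and 363.8 ± 7.98 CPM in the wild type the most highly counted of the list, had log2 fold changes of 0.12 and 0.023.

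**Figure D5:**
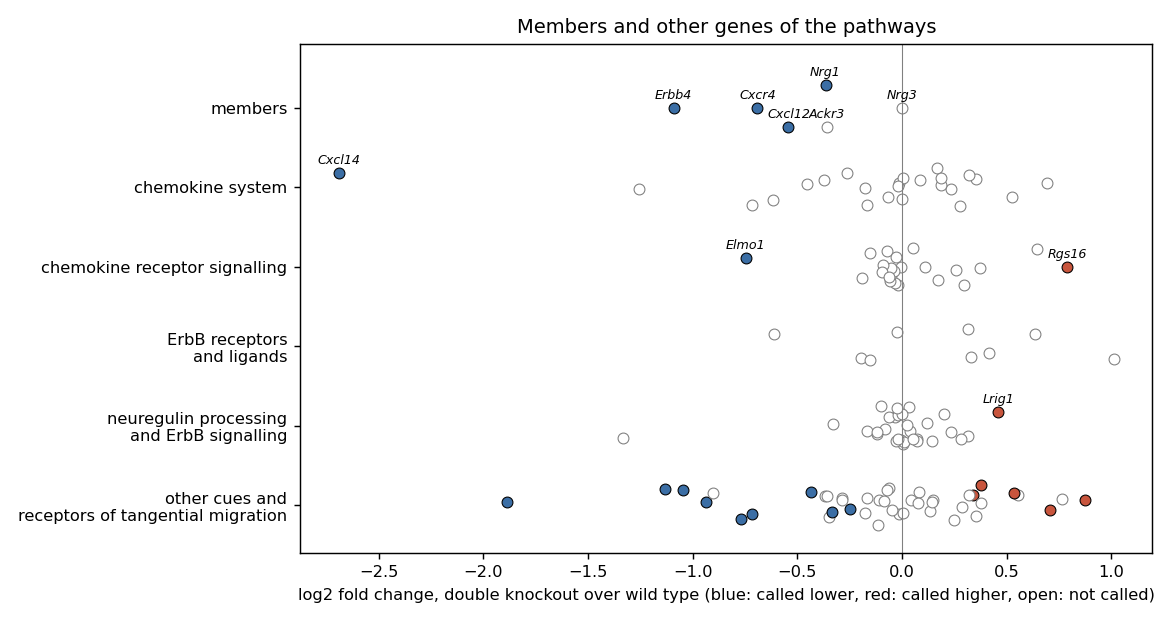
Log2 fold changes (horizontal axis, double knockout over wild type) of the 6 genes and of the tested genes of 5 lists, 1 point per gene with vertical scatter for legibility only. Called genes are filled (blue lower, red higher). Cxcl14, Elmo1, Rgs16 and Lrig1 are the called genes of the first 4 lists, and 14 genes are called in the last.

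Other cues and receptors of tangential migration changed in both directions. Of 44 listed genes, 43 were tested, and 9 were called lower and 5 higher, beside 1.34% of all tested genes in each direction. The median log2 fold change was -0.063. The called genes with the largest changes were the dopamine receptor genes Drd1 and Drd2 (log2 fold changes of -1.89 and -1.13), the RAC activator gene Tiam2 (-1.05), Flrt2, which encodes a repellent ligand of UNC5 receptors (-0.94), and Robo2, a receptor of SLIT repellents (-0.77). Slit2, which encodes a ligand of ROBO2, was the largest increase, at 44.4 ± 3.73 CPM in wild-type and 81.6 ± 11.4 CPM in double knockout libraries, 0.88 on the log2 scale (SE 0.104, edgeR adjusted p = 0.00321). Flrt2, with an SE of 0.0630, was at 168.5 ± 8.40 and 87.9 ± 6.01 CPM. Drd1 and Drd2 were at lower levels, 2.27 and 3.12 CPM in the wild type and 0.611 and 1.42 CPM in the double knockout. The microtubule protein genes Dcx and Pafah1b1, the most highly counted of the list, had log2 fold changes of -0.37 and -0.072 and were not called. The number called was 7, 9 and 9 without wild-type replicates 1, 2 and 3 and 8 without double knockout replicate 1 or 2. It was 14 without double knockout replicate 3. Among these fits Drd2 was not called without wild-type replicate 1, 2 or 3, and Tiam2 was called only without double knockout replicate 3.

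Summed markers of cortical interneurons were also lower in the double knockout. Of 21 cortical interneuron genes, 12 were called lower and 2 higher, beside 1.34% of all tested genes in each direction. The median log2 fold change of the list was -0.58. Their summed level was 2182 to 2290 CPM in the wild type and 1615 to 1690 CPM in the double knockout. This is 74.2% ± 1.73 of the wild-type mean. The most highly counted were Zeb2, called lower at a log2 fold change of -0.55, and Nr2f2 and Sox6, at -0.31 and -0.038 and not called. The summed general neuronal genes were at 86.1% ± 7.66 of the wild-type mean, with 2 of 15 called lower, and the summed radial glia and dividing progenitor genes at 115.2% ± 10.7, with 1 of 15 called higher. Of the general neuronal genes none was called without any of the wild-type libraries, without double knockout replicate 1 or 2 or with the Y-linked covariate, 3 without double knockout replicate 3, and 5 in DESeq2, limma-voom and the fit without a filter. Of the progenitor genes 3 were called without double knockout replicate 3, and 2 in DESeq2, with total count scaling and without a filter. Of 18 genes of ganglionic eminence identity, all were tested, 12 were called lower and 3 higher, and the lower ones include the deleted genes Dlx1 and Dlx2. Meis2 and Dlx1, the most highly counted of these, were at 564.9 ± 29.2 and 438.9 ± 6.12 CPM in wild-type libraries, so defining genes of the labelled tissue were present. The sum of the 18 eminence genes was 2982 to 3140 CPM in the wild type and 1546 to 1877 CPM in the double knockout. This sum, which contains the deleted Dlx1 and Dlx2 themselves, was at 54.1% of its wild-type mean. Beside these interneuron and eminence sums, Erbb4 stood at 46.9%, Cxcr4 at 62.0% and Cxcl12 at 68.6% of their wild-type means. By these means Erbb4 was below both sums, and Cxcr4 and Cxcl12 lay between them. Nrg1 and Ackr3 stood at 77.6% and 78.0%. The part of these markers in the members' differences was not tested.

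Markers of other cells that can express Cxcr4, Ackr3 or Cxcl12 gave few calls. None of 16 endothelial, 12 tested meningeal, 15 microglial and macrophage and 9 tested blood genes was called in edgeR, DESeq2 or limma-voom, and none had an unadjusted edgeR p under 0.05, beside 13.3% of all tested genes. Of 12 mural genes, Notch3 was called higher, at a log2 fold change of 0.49, and it was not called without wild-type replicate 1 or 2 or double knockout replicate 1, or with the Y-linked covariate. The mural sum was 184.3 to 204.0 CPM in the wild type and 219.1 to 260.2 CPM in the double knockout. No marker of these lists that is in the table was at 0 in all libraries. The microglial sum was 54.6 to 68.3 CPM in the wild type and 55.5 to 75.1 CPM in the double knockout, and the blood sum 115.9 to 144.0 and 105.8 to 166.2 CPM. Of 8 Cajal-Retzius genes, 2 were called higher and none lower. None of these 8 was called without wild-type replicate 1 or 2 or double knockout replicate 1 or 2, 1 was without wild-type replicate 3, and 3 were without double knockout replicate 3. Oligodendrocyte precursor genes gave more calls, with 6 of 8 called higher, beside 1.34% of all tested genes. Their sum was 78.4 to 80.0 CPM in the wild type and 146.2 to 189.4 CPM in the double knockout.

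The genes with profiles most like those of the members were ranked by the root mean square (RMS) difference of log2 CPM over the 6 libraries. Each gene's wild-type mean had been subtracted. Candidates for each member were the 13314 other genes whose mean was 1 CPM or more, without unnamed gene models. Nearest to Erbb4 were the tetraspanin gene Tspan9, the kainate receptor gene Grik3 and the transcription factor gene Fosl2, at RMS differences of 0.0965, 0.104 and 0.111, and 16 genes lay within 0.2. Cxcr4 was nearest to Tcim, Thbs1 and Sybu (0.0655 to 0.0872), with 168 genes within 0.2. Cxcl12 was nearest to the protease gene Adamts1, Rhebl1 and the transcription factor gene Cux2 (0.0638 to 0.0785), with 284 genes within 0.2. Ackr3 was nearest to the semaphorin receptor gene Plxna2 (0.0511), Zeb2os and Hba-a1. Plxna2 was at 534.8 and 528.2 CPM in double knockout replicates 1 and 2 and at 645.5 CPM in replicate 3, beside 740.5 to 774.2 CPM in the wild type. The ranking by profile selects for such a high replicate 3. Hba-a1, a globin gene, has near-identical copies, and its count is uncertain.

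Nrg1 was nearest to Chn2, Bdh1 and Nhs (RMS differences of 0.0565 to 0.0594), with 1572 genes within 0.2. Nrg3 was nearest to Dner, Clmn and the neurotrophin receptor gene Ntrk2 (0.0319 to 0.0394), with 5878 genes within 0.2. Selected by profile, these 3 genes were lowest in double knockout replicate 3, as Nrg3 was. Ntrk2 was at 88.3 CPM there against 126.5 and 132.1 CPM in double knockout replicates 1 and 2. Between members, Cxcr4 and Cxcl12 were the most alike, at an RMS difference of 0.151, and Erbb4 and Nrg3 the least, at 0.786. The libraries are the same for all genes, and likeness over 6 of them is a description only.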

How the data were processed

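Total RNA libraries depleted of ribosomal RNA were made from ganglionic eminences with a stranded kit, per the labels' protocols. The authors deposited raw read counts per gene, made with featureCounts on the GRCm39 build, per the submitters' processing notes. The aligner, the annotation release and the strand and multi-mapping settings are not given in the sources used here. The deposited counts were not normalised, and no libraries were pooled. Samples were grouped by their titles.

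Low counts were removed with edgeR's filterByExpr (minimum count 10, minimum total 15) in version 4.0.16 under R 4.3.3, which left 23628 of 55416 genes. They were scaled by TMM and tested with edgeR's quasi-likelihood test over all 6 libraries, with Benjamini-Hochberg adjustment over all tested genes. SEs are the log2 fold change divided by the square root of F. Exon lengths and overlaps came from GENCODE M21 on GRCm38, another build than the authors', so no coordinates of the counted genes are given. Promoter windows and their coordinates are RefSeq's on GRCm38.p6. The alternatives were DESeq2 1.42.0, limma-voom (limma 3.58.1), other scaling and filters, a replicate block, a Y-linked covariate and each library left out. The code was tested on simulated data. No libraries held identical counts.

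The members and lists were chosen with earlier results of these data known. Named were the members, Dlx1 and Dlx2, up to 6 called genes with the largest changes and the 2 most highly counted genes of each pathway list, the 3 most highly counted of each marker list where its genes are named, and the 3 nearest profiles of each member. Unnamed gene models were skipped. A marker gene that this rule would name is not reported here. Other named genes are marked as named after their values were seen, or stand beside a count of 5 or fewer. Counts cover counting error only, since reads carried no molecular identifiers, and 3 counts correspond to 0.0428 to 0.0530 CPM.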

Additional observations from a re-analysis of the deposited data

How the results depend on the processing

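Erbb4 was called lower in all 14 other settings and Cxcr4 in 13, at -0.77 to -0.57 when a library was left out. Over the whole table, 1162 genes were called by DESeq2, 359 with the Y-linked covariate, and 309 to 749 with a library left out. Ackr3, not called with all libraries in edgeR, was called by DESeq2 at -0.35, and ranged from -0.49 to -0.28 with a library left out. The Cxcl12 call was lost with total count scaling (-0.52, adjusted p = 0.0568 in edgeR) and with the Y-linked covariate (-0.58, adjusted p = 0.0710), and ranged from -0.63 to -0.43 with a library left out. The Nrg1 call was lost with total count scaling (-0.34, adjusted p = 0.0673 in edgeR), with a filter at a mean of 1 CPM (-0.35, adjusted p = 0.0509) and with the covariate (-0.32, adjusted p = 0.109), and ranged from -0.43 to -0.31 with a library left out. Fewer libraries leave fewer degrees of freedom, and the cause of a gained or lost call was not tested. Total count scaling moved the median of all genes by 0.028. Nrg3, not called in any setting, was at -0.016 in limma-voom and -0.0094 with the replicate block, and from -0.089 to 0.14 with a library left out.

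In the chemokine list DESeq2 called 2 genes. Of the chemokine receptor signalling genes DESeq2 and the fit without a filter each called 4. Of the ErbB receptors and ligands 2 were called by DESeq2, 1 with total count scaling, 1 without a filter, 1 at a mean of 1 CPM, 1 with the replicate block and 0 to 1 with a library left out. Of the neuregulin processing and ErbB signalling genes 2 were called with total count scaling, 3 by DESeq2, 2 without a filter, 2 with the replicate block, 0 with the covariate and 0 to 2 with a library left out. The list of other migration cues gave 7 to 14 with a library left out.

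Same-numbered libraries did not deviate together. The correlations of their deviations from the group means were -0.247, -0.0264 and 0.0107 over genes averaging 1 CPM or more, and wild-type replicates 1, 2 and 3 correlated best with double knockout replicates 2, 1 and 1. With the replicate block 690 genes were called over the whole table, of which 560 were shared with the 634, and the calls of the 6 members were the same as without it.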
